A study of Mus musculus with 8 samples.

Results

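Transcripts of 10 genes of T cell identity and T cell movement were followed in mouse liver tumors: Cd3d, Cd3e, Cd3g, Cd4, Cd8a, Cd8b1, Cd5, Cd6, Cd69 and S1pr1. They were chosen by gene symbol and joined by Ensembl identifier to the counts, where they are 10 of 55536 counted genes. HCA-1, a mouse hepatocellular carcinoma line, had been placed under the capsule of the liver of male C3H mice (mice aged 6 to 8 weeks by the sample labels), so that all 8 tumors grew from the same line in the same organ. On day 17, 4 mice had received a single dose of PFSUV-IMQ at 4 mg per kg intravenously and 4 had received saline, which the study elsewhere calls untreated, and tumors were taken 3 h later. PFSUV-IMQ carries imiquimod, an agonist of the RNA sensor TLR7, in phospholipid-free small unilamellar vesicles. The labels call the groups IMQNP (replicates 1, 2, 3 and 4) and Control (replicates 1, 3, 4 and 5). The comparison is therefore of loaded vesicles against saline, and vesicles without drug were not analysed here. No label names the animals, and p-values measure the spread between these tumors.

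The T cell receptor reaches the cell surface with the CD3 gamma, delta and epsilon chains, which carry its signal inward. CD4 and CD8 are the coreceptors of helper and cytotoxic T cells, and CD5 and CD6 are scavenger-receptor family proteins of the T cell surface that restrain receptor signaling. CD69 is a C-type lectin that appears within hours of activation or of interferon exposure, and it binds S1PR1 and draws it from the surface. S1PR1 senses sphingosine 1-phosphate and lets lymphocytes leave tissue for lymph and blood. CD69 is also made by activated B and NK cells, and S1PR1 is abundant in endothelial cells.

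Whole tumors were sequenced, so that fewer cells of a type and less RNA per cell cannot be told apart. Counts per tumor totalled 16883911 to 27687756 after saline and 17008151 to 18527613 after PFSUV-IMQ. The lowest count of any of the 10 genes in any tumor was 20. Levels are normalized CPM (counts put on one scale of library size by edgeR's TMM factors), given as mean ± SD of 4 tumors. Groups were compared for 15998 tested genes by the quasi-likelihood test of edgeR, and p-values were adjusted over these genes by the Benjamini-Hochberg method. A call required both an adjusted p below 0.05 and a change of more than 1 on the log2 scale. Replicate 2 of the PFSUV-IMQ group stood apart: it was the highest of its group for 10 of the 10 genes and the highest of all 8 tumors for 6 of them. The same tumor had the largest hepatocyte marker sum (40385 CPM, against 7295 to 10660 in the other 3), the smallest TMM factor (0.843) and the largest mitochondrial share of counts (6.65%). Values without it are given beside those for the 10 genes and the lists where it turns a direction or moves a value by more than 1.5 times.

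Of the 10 genes, all of which passed the filter on low counts, 1 was called higher after PFSUV-IMQ (Cd69) and 0 were called lower. Over all tested genes, 2.26% were called higher and 0.200% lower. The groups did not overlap for 1 gene that was higher (Cd69) and 1 that was lower (Cd5), against 6.00% and 3.28% of all tested genes. The same genes were those with an unadjusted p under 0.05, which 8.34% of all tested genes reached in the higher and 4.65% in the lower direction. The DESeq2 Wald test called 1 of the 10 lower (Cd5), and limma voom and edgeR's exact test called 0 lower. The median log2 fold change of the 10 genes was −0.13, against −0.03 over all tested genes. Without replicate 2 of PFSUV-IMQ it was −0.46, with 9 of the 10 estimates below 0. Without that tumor the log2 fold change was −0.70 for Cd3d, −0.34 for Cd3e, −0.60 for Cd3g, −0.55 for Cd4, −1.01 for Cd6 and −1.47 for Cd5, none of them called.

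**Figure D1:**
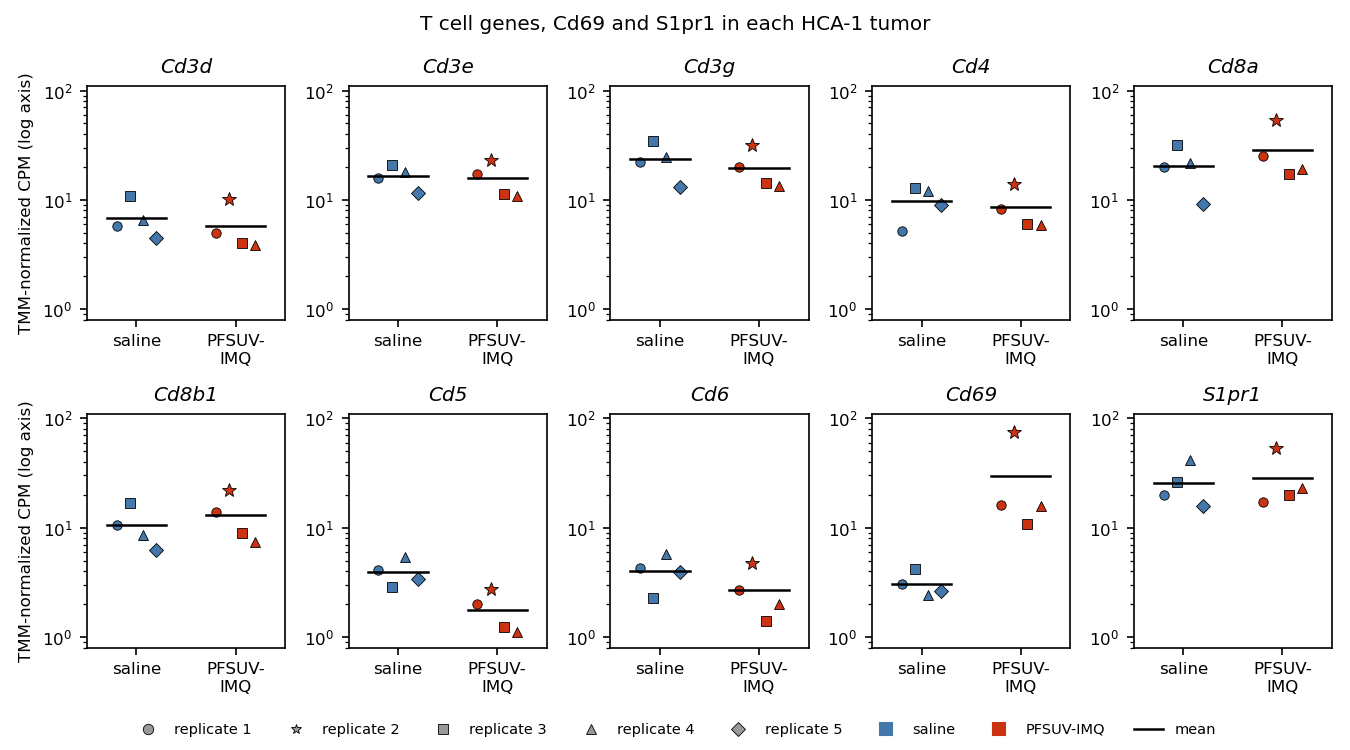
TMM-normalized CPM (log axis) of each of the 10 genes in the 4 saline and 4 PFSUV-IMQ tumors, with symbols for the replicate number and a line at the group mean. Cd69 stood at 10.9 to 74.7 in the PFSUV-IMQ tumors, all above the saline tumors (2.41 to 4.18), and the star, replicate 2, was at the top of its group in every panel.

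The 3 CD3 genes lie together on chromosome 9 (GRCm38, GENCODE M21): Cd3g at chr9:44969572-44980431 on the minus strand, Cd3d at chr9:44981786-44987339 on the plus strand and Cd3e at chr9:44998740-45009627 on the minus strand. Cd5 (chr19:10717116-10739002) and Cd6 (chr19:10789341-10830058), both on the minus strand, lie 50338 bases apart. The upstream stretches of Cd3e and Cd5 are shown because these are the CD3 gene and the inhibitor gene whose ratio is tested further on. They end at the base before the RefSeq start site (build GRCm38.p6), read 5′ to 3′ on the gene's strand, and capitals mark the match to the ETS-type letters GGAAGT on either strand.
Cd3e, chr9:45009612-45009731, minus strand: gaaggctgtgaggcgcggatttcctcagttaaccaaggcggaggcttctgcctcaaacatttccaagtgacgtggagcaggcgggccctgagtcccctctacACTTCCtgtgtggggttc
Cd5, chr19:10738975-10739094, minus strand: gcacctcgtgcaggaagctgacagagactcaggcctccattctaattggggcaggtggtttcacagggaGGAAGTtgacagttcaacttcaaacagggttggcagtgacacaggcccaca
Motifs of 3 families of T cell transcription factors were searched on both strands of the 250 bases before each RefSeq start. The ETS letters GGAAGT are in 19.7% of all 32851 RefSeq promoters. The letters TGTGGT, read by RUNX factors, are in 14.0% of them, and the letters AGATAA, read by GATA factors, in 9.99%. The motifs share no position in the windows described here. Promoter entries were matched for 5 of the 10 genes: Cd3d, Cd3e, Cd3g, Cd8a and Cd5. The ETS letters began 18 bases before the start of Cd3e, 51 before that of Cd5 and 199 before that of Cd3d. The GATA letters began 104 bases before the start of Cd3g, and the RUNX letters were in none of the 5 windows.

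The CD3 chains stood at similar levels in both groups. Cd3e, the epsilon chain that pairs with both other chains, was at 15.8, 20.9, 18.0 and 11.5 CPM in saline replicates 1, 3, 4 and 5 and at 17.4, 23.3, 11.4 and 10.9 CPM in PFSUV-IMQ replicates 1 to 4. The ranges overlapped almost throughout. The means were 16.6 ± 3.98 and 15.8 ± 5.85 CPM, with a log2 fold change of −0.07 (SE 0.29, 95% interval −0.72 to 0.57, adjusted p = 0.957 by edgeR's quasi-likelihood test). In the counting, 3.31% of the exon bases of Cd3e are shared with an antisense gene, Gm48719, which had 51 counts in the 8 tumors together.

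Cd3g, the gamma chain, was at 22.3, 34.9, 24.6 and 13.1 CPM after saline and at 19.9, 31.4, 14.2 and 13.4 CPM after PFSUV-IMQ. Saline replicate 3 and PFSUV-IMQ replicate 2 were highest, as for the other CD3 chains. The log2 fold change was −0.27 (95% interval −1.04 to 0.51, edgeR adjusted p = 0.836). Cd3d, the delta chain, was the least abundant of the 3 by CPM, at 5.71, 10.8, 6.49 and 4.45 after saline and at 4.97, 10.2, 4.01 and 3.86 after PFSUV-IMQ. Its log2 fold change was −0.26 (95% interval −1.13 to 0.62, edgeR adjusted p = 0.864), and 0.05 without saline replicate 3. The intervals of all 3 CD3 genes held changes of both signs.

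The coreceptor genes gave no call either, and their estimates differed in sign. Cd8a (chr6:71373427-71379173, plus strand), the CD8 alpha chain, was at 20.1, 31.6, 21.6 and 9.18 CPM after saline and at 25.3, 53.6, 17.1 and 19.0 CPM after PFSUV-IMQ. Replicate 2 was far above every other tumor. The means were 20.6 ± 9.16 and 28.7 ± 16.9 CPM, with a log2 fold change of 0.48 (95% interval −0.50 to 1.46, edgeR adjusted p = 0.748), and of −0.03 without that replicate.

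Cd8b1, the CD8 beta chain 35932 bases away on the same strand (chr6:71322788-71337494), was at 10.5, 16.7, 8.51 and 6.19 CPM after saline and at 13.8, 22.1, 8.98 and 7.44 CPM after PFSUV-IMQ. The log2 fold change was 0.32 (95% interval −0.58 to 1.21, edgeR adjusted p = 0.828), and −0.08 without replicate 2. Of its 50-base stretches, 6.00% occur in other genes, so that part of its count is uncertain. Cd4 (chr6:124864692-124888221, minus strand), the coreceptor of helper T cells that mouse macrophages and dendritic cells can also carry at low level, was at 5.16, 12.8, 12.1 and 8.90 CPM after saline and at 8.33, 14.0, 5.97 and 5.90 CPM after PFSUV-IMQ. Its groups overlapped almost throughout, and the log2 fold change was −0.19 (95% interval −1.01 to 0.63, edgeR adjusted p = 0.904).

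Cd5 was the one T cell identity gene whose groups were separate. It was at 4.10, 2.88, 5.37 and 3.42 CPM after saline and at 1.99, 2.72, 1.23 and 1.10 CPM after PFSUV-IMQ. The highest PFSUV-IMQ tumor, replicate 2, was just under the lowest saline tumor, replicate 3. The means were 3.94 ± 1.07 and 1.76 ± 0.752 CPM, with a log2 fold change of −1.17 (SE 0.36, 95% interval −1.97 to −0.36). This did not pass edgeR's quasi-likelihood test (adjusted p = 0.160, unadjusted p = 0.00935), and with the DESeq2 Wald test the adjusted p was 0.0443. When tumors were left out 1 at a time, the estimate stayed between −1.47 and −0.98.

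Cd6, the neighbor and relative of Cd5 that binds ALCAM, was at 4.29, 2.28, 5.71 and 3.91 CPM after saline and at 2.70, 4.75, 1.39 and 1.98 CPM after PFSUV-IMQ. Here replicate 2 of PFSUV-IMQ was above 3 of the 4 saline tumors. The log2 fold change was −0.58 (95% interval −1.53 to 0.36, edgeR adjusted p = 0.657), which leaves the change of Cd6 undetermined in direction.

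Cd69 rose. The gene (chr6:129267325-129275436, minus strand) was at 3.04, 4.18, 2.41 and 2.61 CPM after saline, from 48 to 119 counts, and at 16.1, 74.7, 10.9 and 15.8 CPM after PFSUV-IMQ, from 195 to 1069 counts. The lowest PFSUV-IMQ tumor was above the highest saline tumor, and replicate 2 was far above the other 3 of its group. The means were 3.06 ± 0.794 and 29.3 ± 30.3 CPM, a 9.53-fold difference (95% interval 3.63 to 25.1). The log2 fold change was 3.25 (SE 0.62, edgeR adjusted p = 0.0252). Without replicate 2 of PFSUV-IMQ it was 2.19 (adjusted p = 0.00254). The call was lost on leaving out any 1 saline tumor, with adjusted p = 0.0917, 0.0711, 0.0788 and 0.0656 without replicate 1, 3, 4 or 5 and log2 fold changes of 3.15 to 3.44. It was also lost with limma voom (log2 fold change 2.77, adjusted p = 0.0566).

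S1pr1 (chr3:115710433-115715072, minus strand) had no clear direction. It was at 19.8, 26.2, 41.5 and 15.6 CPM after saline and at 17.3, 53.7, 20.0 and 23.2 CPM after PFSUV-IMQ. Saline replicate 4 and PFSUV-IMQ replicate 2 were highest, and the other 6 tumors lay between 15.6 and 26.2. The means were 25.8 ± 11.3 and 28.5 ± 17.0 CPM, with a log2 fold change of 0.14 (SE 0.41, 95% interval −0.78 to 1.07, edgeR adjusted p = 0.940). It was −0.37 without PFSUV-IMQ replicate 2 and −0.03 without saline replicate 5.

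**Figure D2:**
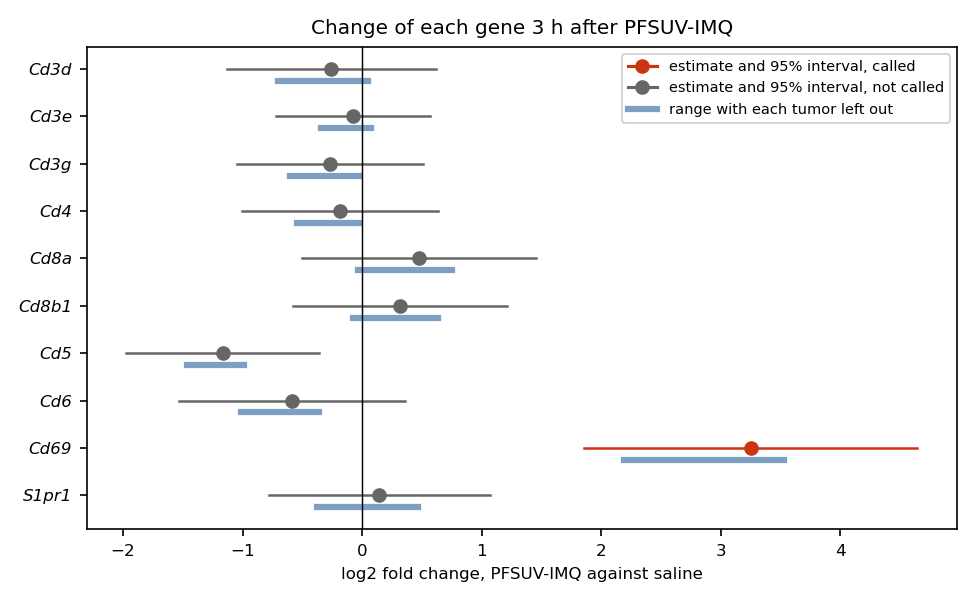
Log2 fold change of each gene, PFSUV-IMQ against saline, with its 95% interval from edgeR's quasi-likelihood fit (circle and line, red where called) and the range of the estimate with each tumor left out in turn (blue bar). Cd69 (3.25) and Cd5 (−1.17) have intervals that do not reach 0, and the bars of Cd3d, Cd3e, Cd8a, Cd8b1 and S1pr1 cross it.

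Per kilobase of exon, which allows genes to be ranked, S1pr1 had the highest mean level of the 10 in both groups (8.47 ± 3.72 CPM per kb after saline and 9.37 ± 5.57 after PFSUV-IMQ). Without PFSUV-IMQ replicate 2 its mean there was 6.61 ± 0.959, just under that of Cd8b1 (6.79 ± 2.23). After saline it was followed by Cd3g (7.25 ± 2.74), Cd8b1 (7.07 ± 3.05), Cd8a (5.67 ± 2.52), Cd3e (4.06 ± 0.975), Cd3d (3.77 ± 1.51) and Cd4 (2.41 ± 0.861). Cd5 (0.800 ± 0.218), Cd6 (0.508 ± 0.177) and Cd69 (0.470 ± 0.122) were lowest. Of all neighbors in this order, Cd4 and Cd5 were the only pair whose ranges over 4 tumors did not overlap. After PFSUV-IMQ, Cd69 was ranked 5 of the 10, at 4.51 ± 4.66 CPM per kb, between Cd3g (6.04 ± 2.54) and Cd3e (3.86 ± 1.43). It was above Cd3e in 1 of the 4 tumors by this scale, which was replicate 2. Without that tumor, Cd69 was ranked 7, at 2.19 ± 0.447 CPM per kb, below Cd3e (3.24 ± 0.884) and Cd3d (2.36 ± 0.330). The step from Cd4 (2.12 ± 0.949) to Cd5 (0.357 ± 0.153) again had no overlap, and Cd6 (0.340 ± 0.184) was the lowest.

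Ratios within a tumor set 1 transcript against another from the same RNA. They were taken on a log2 scale after adding 0.5 CPM and compared by a two-sided exact permutation test over 70 groupings of 4 against 4 tumors, for which 0.0286 is the smallest p possible, with adjustment over 5 ratios. The ratio of Cd69 to Cd3e was −2.20, −2.20, −2.67 and −1.95 after saline and −0.11, 1.66, −0.06 and 0.51 after PFSUV-IMQ. All 4 PFSUV-IMQ tumors were above all 4 saline tumors, by 2.75 on average (exact p = 0.0286, adjusted p = 0.0714). The ratio of Cd5 to Cd3e was −1.82, −2.66, −1.66 and −1.62 after saline and −2.85, −2.89, −2.78 and −2.83 after PFSUV-IMQ. It was lower in all 4 PFSUV-IMQ tumors, by a mean difference of −0.90 (exact p = 0.0286, adjusted p = 0.0714), and their SD was 0.04 against 0.49 after saline. With 0.5 CPM added, the ratios of Cd69 and of Cd5 to Cd3e both had the smallest exact p possible. An adjusted p of 0.0714 was thus the lowest they could reach while the other ratios were not at that limit. The separation for Cd5 to Cd3e depended on the pseudocount. With 2 CPM added instead, the difference was −0.57 (exact p = 0.0857, adjusted p = 0.214), the groups overlapped (−2.23 to −1.32 after saline and −2.42 to −2.05 after PFSUV-IMQ), and the SD was 0.18 after PFSUV-IMQ.

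The ratio of S1pr1 to Cd3e averaged 0.56 ± 0.41 after saline and 0.75 ± 0.53 after PFSUV-IMQ, a difference of 0.19 (exact p = 0.514, adjusted p = 0.643). Saline replicate 4 (1.18) and PFSUV-IMQ replicates 2 (1.19) and 4 (1.05) were above 1. Against Pecam1, an endothelial surface marker at 35.3 ± 6.75 and 31.6 ± 6.83 CPM, the S1pr1 ratio averaged −0.52 ± 0.66 and −0.27 ± 0.78 (exact p = 0.657, adjusted p = 0.657), with wide overlap. Without PFSUV-IMQ replicate 2 the differences were 0.049 for S1pr1 to Cd3e and −0.069 for S1pr1 to Pecam1. The ratio of Cd4 to Cd8a was −1.86, −1.27, −0.81 and −0.04 after saline and −1.55, −1.89, −1.45 and −1.60 after PFSUV-IMQ. The difference of −0.63 lay within the spread of the saline tumors (exact p = 0.171, adjusted p = 0.286).

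**Figure D3:**
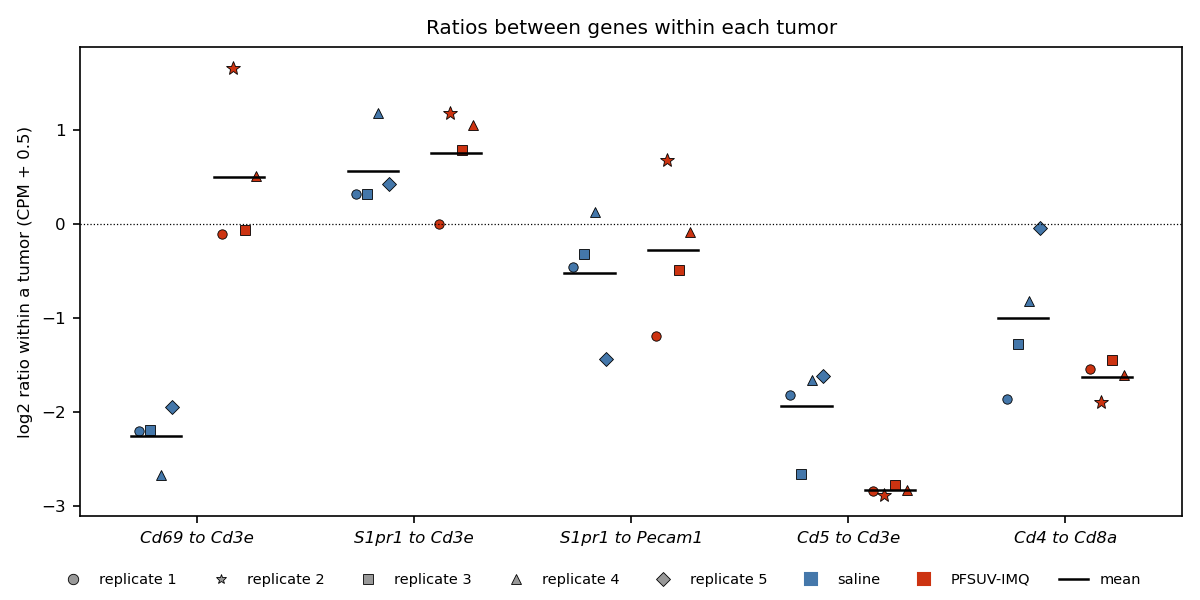
Log2 ratio within each tumor of 5 gene pairs, after adding 0.5 CPM, with symbols for the replicate number and a line at the group mean. The groups are separate for Cd69 to Cd3e (−2.67 to −1.95 after saline, −0.11 to 1.66 after PFSUV-IMQ) and, with this pseudocount, for Cd5 to Cd3e, and overlap for the other pairs.

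Across the 8 tumors, the CD3 chains varied together, with Pearson r between their log2 CPM of 0.920 to 0.965. The points of these correlations share their library, its depth and, in part, their treatment, and they are given as descriptions. Cd8a and Cd8b1 had an r of 0.930 with each other and of 0.770 to 0.868 with the CD3 chains. Cd4 followed the CD3 chains with an r of 0.694 to 0.789. Cd5 and Cd6 followed each other (r = 0.871) more than the CD3 chains (0.484 to 0.510 for Cd5, 0.405 to 0.499 for Cd6). S1pr1 had an r of 0.659 to 0.679 with the CD3 chains and Cd69 of 0.125 to 0.247. After the group means were taken out, so that deviations within groups remain, the r of Cd69 with the CD3 chains was 0.743 to 0.858 and that of S1pr1 0.690 to 0.729. On the same scale it was 0.948 to 0.987 for Cd8a, 0.940 to 0.957 for Cd8b1, 0.467 to 0.685 for Cd5 and 0.322 to 0.4996 for Cd6. PFSUV-IMQ replicate 2, the highest of its group for all of them, is among these points.

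The tested genes most like Cd69 over the 8 tumors were Il1rn, the interleukin-1 receptor antagonist (r = 0.996), Rasgef1b (0.992), P2ry14, a receptor for UDP-glucose (0.991), Ctgf, a matricellular growth factor (0.991), and Nos2, inducible nitric oxide synthase (0.990). Of these, Il1rn, P2ry14, Ctgf and Nos2 were called higher, and Nos2 went from 7.90 to 129 CPM in mean level. With each tumor left out, Ctgf kept its call in 8 of 8 fits, P2ry14 and Nos2 in 4 (all but those without a saline tumor) and Il1rn in 3. Those most like S1pr1 were Kmo, kynurenine monooxygenase (0.993), Gata6, a transcription factor (0.991), Msra, a methionine sulfoxide reductase (0.989), Bckdhb, a subunit of branched-chain keto acid dehydrogenase (0.988), and Tdrp (0.986). None of these 5 was called by edgeR's test, with log2 fold changes of 0.01 to 0.17 and adjusted p of 0.955 to 0.994, and of −0.81 to −0.47 without PFSUV-IMQ replicate 2. Those like Cd3e included the chemokine Ccl6 (0.982), the T and NK cell adhesion gene Cd2 (0.974), Cd3g (0.965) and the prostaglandin receptor Ptger2 (0.965).

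Of the 7 other genes within 100 kb of Cd69, 3 were tested. Clec2d, which lies nearby in the same cluster of lectin genes and encodes a ligand of an NK cell receptor, was called higher, at 91.4 CPM after saline and 190.4 after PFSUV-IMQ in mean level (log2 fold change 1.06, SE 0.19, edgeR adjusted p = 0.0206), and its groups did not overlap. Its estimate was close to the fold limit and stayed called in 2 of 8 fits with a tumor left out, with estimates of 0.95 to 1.18. Clec12a, an inhibitory lectin of myeloid cells, had a log2 fold change of −0.39 (edgeR adjusted p = 0.628), and 2310001H17Rik one of 0.65 (edgeR adjusted p = 0.499). The single gene within 100 kb of S1pr1, Gm9889, had 20 counts in the 8 tumors and was not tested.

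The other genes of the T cell receptor and its signaling, 20 of which were tested, gave 0 calls by edgeR's quasi-likelihood test, 0 with an unadjusted p under 0.05 and 0 calls by DESeq2, edgeR's exact test or limma voom. Their median log2 fold change was 0.07, with 11 estimates above and 9 below 0, and it was −0.28 without PFSUV-IMQ replicate 2. Trac, the constant gene of the receptor alpha chain, was at 15.1 ± 4.69 CPM after saline and 11.1 ± 3.29 after PFSUV-IMQ (edgeR adjusted p = 0.611). Trbc1, a beta chain gene, had an estimate of 0.56 (edgeR adjusted p = 0.745), and of −0.15 without that tumor. Ptprcap was at 0 counts in all tumors.

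Of 10 tested T cell transcription factors, 0 were called by any of the 4 tools, and 1 had an unadjusted p under 0.05, lower. That was Tcf7, the factor TCF1 of naive and memory T cells, at 9.35 ± 2.17 CPM after saline and 5.54 ± 0.654 after PFSUV-IMQ (log2 fold change −0.75, edgeR adjusted p = 0.158), with no overlap between groups. Tbx21, the factor T-bet, had an estimate of 0.72 (edgeR adjusted p = 0.623), and of 0.24 without PFSUV-IMQ replicate 2. The median of the list was 0.04 with that tumor and −0.20 without it. Of 9 tested regulatory T cell genes 0 were called by any of these tools, and the estimates furthest from 0 were 0.93 for Ctla4 (edgeR adjusted p = 0.619) and 0.68 for Il2ra (edgeR adjusted p = 0.627). Both rested on PFSUV-IMQ replicate 2, without which they were 0.06 and 0.05 and the list median was −0.09 in place of 0.23. Of the 4 tested gamma delta T cell genes 0 were called by any of them and all 4 estimates were below 0 (median −0.47, and −0.76 without replicate 2). Tcrg-C4 had an estimate of −0.66 (edgeR adjusted p = 0.770), and of −1.11 without that tumor. Il17a was at 0 counts in all tumors.

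Early activation genes, other than Cd69, had 13 of 14 estimates above 0 and a median of 0.54. The summed level of the 15 listed genes, of which Cd44 was the largest part, was 1037 to 1985 CPM after saline. It was 2251, 1381, 2304 and 2660 CPM in PFSUV-IMQ replicates 1 to 4. Replicate 2, the highest for Cd69, was thus the lowest of its group by this sum. By edgeR's quasi-likelihood test 0 were called, and 4 had an unadjusted p under 0.05, all higher. Nr4a3, an orphan nuclear receptor induced by receptor signals, was at 4.15, 4.67, 5.20 and 4.51 CPM after saline and at 9.60, 25.6, 6.97 and 8.93 CPM after PFSUV-IMQ. Its groups did not overlap (log2 fold change 1.46, edgeR adjusted p = 0.109, and 0.86 without replicate 2), and DESeq2 and edgeR's exact test called it higher. Egr1, an immediate early transcription factor of many cell types, had an estimate of 1.01 (edgeR adjusted p = 0.264). Unlike Nr4a3, it was lowest in replicate 2, at 541, 212, 621 and 661 CPM in PFSUV-IMQ replicates 1 to 4.

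Among 13 tested genes of the other S1P receptors and of S1P metabolism, 0 were called by any of the 4 tools and the median log2 fold change was −0.02, and −0.11 without PFSUV-IMQ replicate 2. Sphk1, a kinase that makes S1P, was at 36.9, 26.8, 27.1 and 44.5 CPM after saline and at 59.4, 67.0, 62.0 and 50.7 CPM after PFSUV-IMQ. The groups did not overlap, and the log2 fold change of 0.82 had an edgeR adjusted p of 0.0697. S1pr3 had an estimate of 0.95 (edgeR adjusted p = 0.470), and of 0.60 without that tumor.

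Of 15 tested egress and homing genes, edgeR's quasi-likelihood test called 0, with an unadjusted p under 0.05 for 3 higher and 2 lower. Their median was 0.20, and −0.08 without PFSUV-IMQ replicate 2. Cxcr3, a receptor for interferon-induced chemokines, had an estimate of −1.41 (edgeR adjusted p = 0.373), and its groups overlapped. Klf2 and Foxo1, transcription factors that drive S1pr1 in T cells, were chosen after their values were seen. Klf2 was at 27.2 ± 5.74 CPM after saline and 58.8 ± 26.0 after PFSUV-IMQ (log2 fold change 1.11, edgeR adjusted p = 0.103), and DESeq2 and edgeR's exact test called it higher. Foxo1 was at 44.0 ± 5.48 and 70.8 ± 6.55 CPM, and its log2 fold change of 0.69 had an edgeR adjusted p of 0.0453 but lay under the fold limit for a call. With a tumor left out its adjusted p was 0.0552 to 0.137. For both, the groups did not overlap.

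Among 8 tested tissue retention genes, edgeR's quasi-likelihood test called 0, and 1 had an unadjusted p under 0.05, lower. The median was 0.04, and −0.16 without PFSUV-IMQ replicate 2. Itgae, the CD103 integrin chain of resident T cells and of a dendritic cell subset, was at 9.86, 7.91, 16.9 and 14.0 CPM after saline and at 6.51, 6.01, 3.68 and 3.03 CPM after PFSUV-IMQ. The groups did not overlap (log2 fold change −1.34, edgeR adjusted p = 0.0787), and DESeq2 and edgeR's exact test called it lower. Rgs1 had an estimate of 0.84 (edgeR adjusted p = 0.477), and of 0.18 without replicate 2.

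Among 7 tested ligands, relatives and signaling partners of CD5 and CD6, 0 were called by any of the 4 tools, and 2 had an unadjusted p under 0.05 in the higher and 1 in the lower direction. The median was 0.09, and −0.11 without PFSUV-IMQ replicate 2. Cblb, a ubiquitin ligase that CD5 engages, was at 81.2 ± 17.9 CPM after saline and 123 ± 11.8 after PFSUV-IMQ, with no overlap (log2 fold change 0.60, edgeR adjusted p = 0.158). Cd163, a scavenger receptor of macrophages from the same protein family as CD5, was at 7.45 ± 2.81 and 3.68 ± 1.14 CPM (log2 fold change −1.02, edgeR adjusted p = 0.183).

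**Figure D4:**
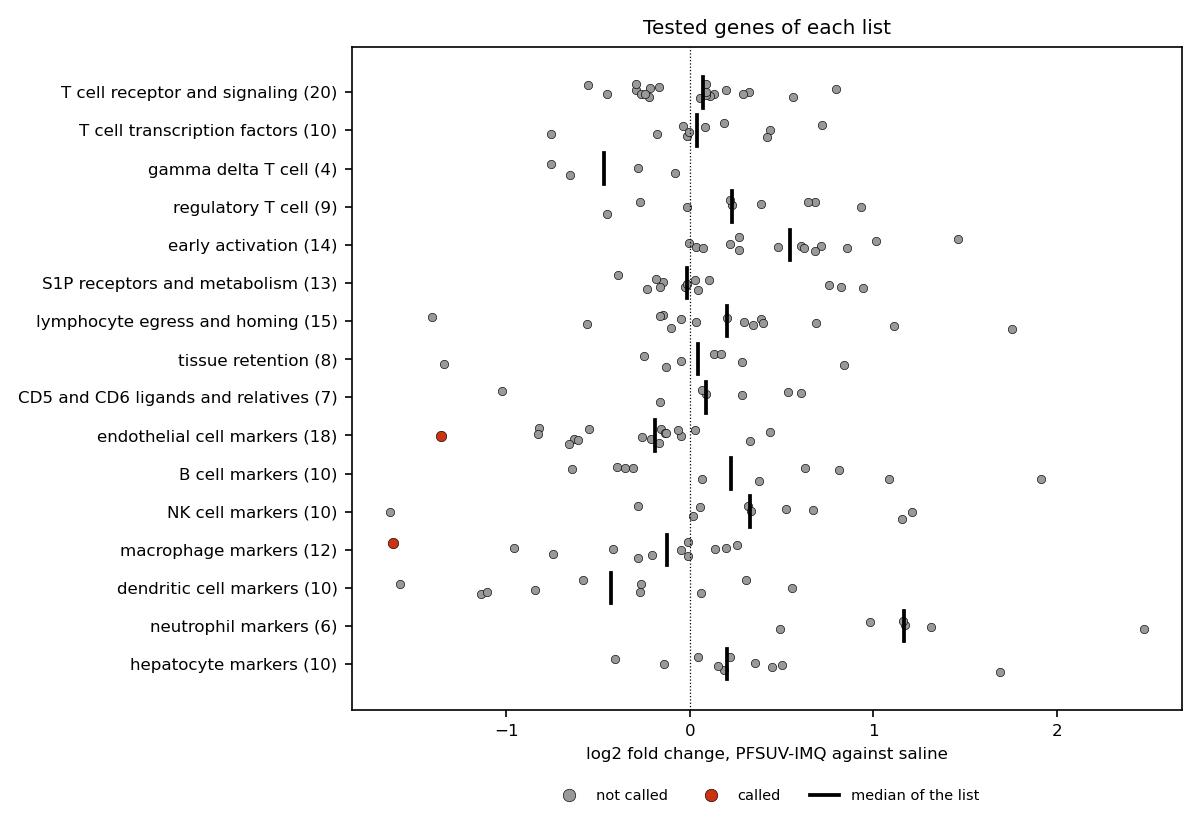
Log2 fold change, PFSUV-IMQ against saline, of each tested gene of 16 lists, 1 point a gene, with a line at the list median and the number of tested genes in parentheses. The called genes of these lists, in red, are the endothelial Clec14a and the macrophage gene Vsig4, and the early activation list has a median of 0.54. The interferon response list, of which all 12 tested genes were called higher, is not drawn.

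Genes induced by interferon were, like Cd69, higher after PFSUV-IMQ. All 12 tested genes of that list were called higher, against 2.26% of all tested genes. Their median log2 fold change was 4.91 (4.29 without replicate 2, all 12 still called), led by Rsad2 (7.28), Mx1 (6.26), Ifit1 (6.05), Ifit3 (5.39) and Isg15 (5.03). The paper had already named these last 5 as upregulated in the same tumors. The list was chosen with that known, so its calls are a description and not a test. Their summed level was 439 to 735 CPM after saline and 6798, 20475, 9790 and 9370 CPM in PFSUV-IMQ replicates 1 to 4. The tumor with the highest sum, replicate 2, was also the highest for Cd69. Among the other 3, the order of the tumors by Cd69 was the opposite of their order by the sum.

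The summed levels of B cell and of NK cell markers, cells that can also make Cd69, were highest in replicate 2 too. The summed level of 12 B cell markers was 38.1 to 82.7 CPM after saline, and 48.5, 349, 30.2 and 34.7 CPM after PFSUV-IMQ. In PFSUV-IMQ replicate 2, Ighm alone was at 296 CPM. The summed level of 12 NK cell markers, Klra8 at 0 counts among them, was 36.2 to 139 CPM after saline and 89.1, 215, 75.1 and 81.0 CPM after PFSUV-IMQ. Prf1 (65.1 CPM) and Klrk1 (57.2) were the largest parts in PFSUV-IMQ replicate 2. Not every NK cell marker was highest there. Ncr1 and Klrd1 were at 0.768 and 16.0 CPM in that tumor and at 0.949 and 19.1 in saline replicate 3. Of 10 tested B cell and 10 tested NK cell markers 0 were called by any of the 4 tools, with an unadjusted p under 0.05 for 1 B cell marker higher, 2 NK cell markers higher and 1 NK cell marker lower. The log2 fold change of Cd69 without replicate 2, 2.19 as given above, does not tell which cells made the transcript. The part of B and NK cells in the level of Cd69 was not tested.

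The levels of S1pr1 were set beside markers of hepatocytes and of endothelial cells. Hepatocyte markers were present in every tumor, with Alb, the gene of albumin, at 2938 to 22446 CPM after saline and 4259 to 22736 after PFSUV-IMQ. The summed level of 10 hepatocyte markers was 11800, 15421, 36995 and 4727 CPM in saline replicates 1, 3, 4 and 5 and 7295, 40385, 10570 and 10660 CPM in PFSUV-IMQ replicates 1 to 4. The tumors with the highest sums, PFSUV-IMQ replicate 2 and saline replicate 4, were the highest for S1pr1, and the lowest sum, saline replicate 5, went with the lowest S1pr1. The summed level of 18 endothelial markers was 282, 316, 439 and 382 CPM in saline replicates 1, 3, 4 and 5. It was 360, 368, 292 and 284 CPM in PFSUV-IMQ replicates 1 to 4. Saline replicate 4 and PFSUV-IMQ replicate 2 were thus the highest of their groups by this sum too, while the lowest saline sum was in replicate 1. Of the estimates of these 18 markers, 15 were below 0 and 3 above. The median was −0.19 (−0.21 without PFSUV-IMQ replicate 2), against −0.03 over all tested genes. Of the 18, 1 was called lower, Clec14a, an endothelial lectin at 8.78 ± 2.96 and 3.43 ± 0.479 CPM (log2 fold change −1.36, edgeR adjusted p = 0.0309). That call held in 2 of 8 fits with a tumor left out (adjusted p 0.0335 to 0.0978). Stab2, a scavenger receptor of liver sinusoidal endothelium, had an estimate of −0.83 (edgeR adjusted p = 0.428). The part of hepatocytes or of endothelial cells in the level of S1pr1 was not tested.

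**Figure D5:**
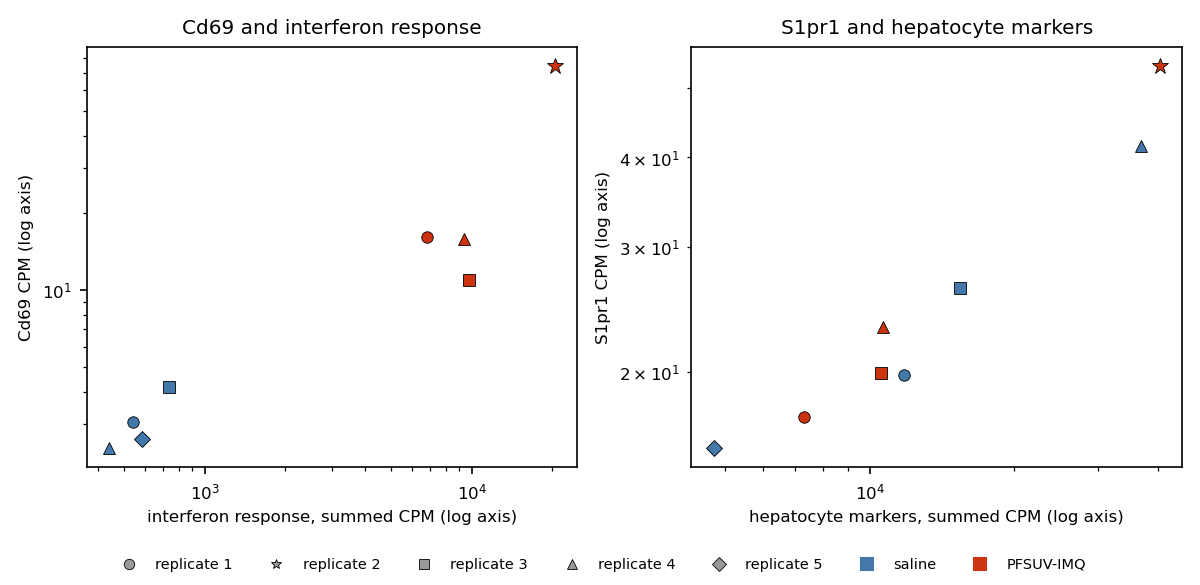
Left, Cd69 CPM against the summed CPM of 12 interferon response genes, and right, S1pr1 CPM against the summed CPM of 10 hepatocyte markers, 1 symbol a tumor and all axes log. PFSUV-IMQ replicate 2 (74.7 CPM of Cd69 and 53.7 of S1pr1) is at the top right of both panels.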

How the data were processed

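RNA of 8 HCA-1 tumors was sequenced by the study. The authors deposited raw counts of reads per gene, which were the input of every test. They also deposited a signal table from DESeq2, counts divided by a size factor per tumor (largest relative departure 5.4e-10), used here for symbols and for an alternative chosen after seeing the data. The paper names TopHat 2.0.12 and HTSeq 0.6.1, the labels Trimmomatic 0.38, HISAT2 2.1.0 and featureCounts 2.0.0, and which made these counts is not known. The build and the strand setting of the counting are not given in the sources used here, so that reads from antisense neighbors may be included. All 55536 identifiers are in GENCODE M21 (GRCm38), which supplied names, exon lengths and coordinates, and 25 symbols of the normalized table that read as dates were replaced by its names. No column was left without a sample. The methods give saline as the control and a younger age of the mice than the labels.

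Counts were analysed in R 4.3.3 with edgeR 4.0.16 (TMM, default filter on low counts, quasi-likelihood test), with limma 3.58.1 and DESeq2 1.42.0 as alternatives, and summarised in Python 3.11.15 with pandas 2.3.3, numpy 2.4.6 and scipy 1.17.1. The limits for a call were 0.05 for the adjusted p and 1 for the size of the log2 fold change. The fits were tested on simulated data. At these depths 3 counts equal 0.105 to 0.210 CPM, and such limits cover counting error only. Pearson r between tumors of a group was 0.912 to 0.983 after saline and 0.925 to 0.984 after PFSUV-IMQ. No sequencing batch or date is given. Both groups have replicates numbered 1, 3 and 4, and nothing in the labels ties tumors of 1 number together.

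The 10 genes and the 17 gene lists were chosen with earlier results of these data known. Named are the 10 genes, in each list the called genes (at most 5) and the 2 with the largest change, the 5 genes most like Cd69, S1pr1 and Cd3e, tested genes within 100 kb of Cd69 and S1pr1, and Pecam1. Genes named outside this rule (Trac, Alb, Klf2 and Foxo1, and those at 0 counts) were chosen after their values were seen. Cd244a and Cd318 had no match. Some genes that the rule names are not reported here. Mean CPM per kb used the union of exons. Alternatives were DESeq2 size factors, upper-quartile scaling, the authors' size factors, no filter, at least 10 counts in every tumor, edgeR's exact test, the DESeq2 Wald test, limma voom, no fold limit, a replicate block, pseudocounts of 2 and 0.1 CPM for ratios, and each tumor left out in turn.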

Additional observations from a re-analysis of the deposited data

Results flagged for a closer look

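In 64 groups of 4 tumors, the highest or lowest value was compared with the others by Dixon's ratio, against its 95% critical value. Of the 64, 8 were set apart. Chance sets about 1 in 20 groups apart if their values are independent and normally distributed. That was not checked for these levels, so their rate by chance is not known. In 7 of the 8 the tumor was replicate 2 of PFSUV-IMQ, and these measures share that library.

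Cd69 was at 74.7 CPM in PFSUV-IMQ replicate 2, against 10.9 to 16.1 in the other 3. S1pr1 was at 53.7 CPM there, against 17.3 to 23.2. In the same tumor the summed level was 131 CPM for regulatory T cell genes (61.4 to 70.7 in the others), 349 for B cell markers (30.2 to 48.5), 215 for NK cell markers (75.1 to 89.1), 157 for neutrophil markers (34.96 to 52.4) and 40385 for hepatocyte markers (7295 to 10660). In the saline group, the log2 ratio of S1pr1 to Cd3e was 1.18 in replicate 4, against 0.32 to 0.43 in the other 3. The CD3 and coreceptor genes, Cd5 and Cd6 were not set apart in this way in either group.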

How the results depend on the processing

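Cd3g, Cd4 and Cd6 kept their direction and stayed without a call under all 17 alternatives. Cd5 kept its direction and was called once, by the DESeq2 Wald test (−1.16, adjusted p = 0.0443). Cd69 stayed higher under all 17 and lost its call in 5, with limma voom (2.77, adjusted p = 0.0566, 0 of the 10 genes called higher) and without any 1 saline tumor. With each tumor left out its log2 fold change was 2.19 to 3.53 (adjusted p 0.00254 to 0.0917), and 0 to 1 of the 10 genes were called higher. Directions changed, never with a call, for Cd3d (−0.70 to 0.046 with each tumor left out), Cd3e (−0.34 to 0.072), Cd8a (−0.031 to 0.76), Cd8b1 (−0.080 to 0.63), S1pr1 (−0.37 to 0.47) and the ratio of S1pr1 to Pecam1 (−0.069 to 0.56). The other 4 ratios kept their direction under all 11 of theirs, but with 2 CPM added the ratio of Cd5 to Cd3e went to −0.57 (adjusted p = 0.214) and its groups overlapped. That of Cd69 to Cd3e was then 2.34 (permutation test, adjusted p = 0.143), with the groups still separate. With 0.1 CPM added, the groups were separate for both ratios (2.90 for Cd69 and −1.06 for Cd5, permutation test, adjusted p = 0.0714 for each). For ratios with a tumor left out, only the difference is given, without a p-value.

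Over all tested genes, 362 were called higher and 32 lower. The count of genes lower was 63 with no filter, 92 with edgeR's exact test, 114 with the DESeq2 Wald test (which called 572 higher and 1 of the 10 genes lower) and 21 with limma voom. With each tumor left out, 197 to 375 were called higher and 8 to 38 lower. The causes were not tested.

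Deviations of same-numbered tumors from their group means had an r of 0.29, −0.27 and −0.32. Pairs of unlike number ranged from −0.64 to 0.68, so these values cannot tell whether tumors of 1 number belong together. A replicate block leaves only replicates 1, 3 and 4 of each group to set the difference. PFSUV-IMQ replicate 2 and saline replicate 5 have no partner and add nothing to it. With this block, 416 genes were called higher and 267 lower, and Cd69 stayed called (2.15, edgeR adjusted p = 0.0152). Cd8a (−0.24), Cd8b1 (−0.23), S1pr1 (−0.48) and the ratio of S1pr1 to Pecam1 (−0.37) changed direction without a call. The block and the loss of replicate 2 cannot be told apart in these values.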

Other observations

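Of 12 tested macrophage markers, 1 was called lower, Vsig4, a complement receptor of liver macrophages (17.3 ± 7.61 CPM after saline and 5.63 ± 2.103 after PFSUV-IMQ, log2 fold change −1.62, edgeR adjusted p = 0.0453). That call held in 1 of 8 fits with a tumor left out, the one without PFSUV-IMQ replicate 2 (adjusted p 0.0225 to 0.124 over the 8), and was lost with limma voom (adjusted p = 0.0507). Clec4f, a lectin of Kupffer cells, was at 30.1 ± 10.6 and 15.5 ± 2.28 CPM (edgeR adjusted p = 0.122). Of 10 tested dendritic cell markers edgeR's quasi-likelihood test called 0 (3 were lower with an unadjusted p below 0.05), and the DESeq2 Wald test called 1 lower, Flt3, the receptor of a dendritic cell growth factor (7.09 ± 2.57 and 3.22 ± 0.986 CPM, edgeR adjusted p = 0.147). Cd209a had an estimate of −1.58 (edgeR adjusted p = 0.443). All 6 tested neutrophil markers had estimates above 0, with a median of 1.17, and 0 were called by any of the 4 tools. The median was 0.38 without PFSUV-IMQ replicate 2. The estimates furthest from 0 were those of Retnlg (2.48, edgeR adjusted p = 0.291) and Mmp8 (1.31, edgeR adjusted p = 0.362), which were 1.38 and 0.65 without that tumor.

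Among B cell markers, Pax5 had an estimate of 1.91 (edgeR adjusted p = 0.326) and Ighm one of 1.09 (edgeR adjusted p = 0.681), which were 0.91 and −0.79 without PFSUV-IMQ replicate 2, with Ighm at 296 CPM in PFSUV-IMQ replicate 2 and at 19.7 to 32.9 in the other 3. The median of the B cell list was 0.22 with that tumor and −1.15 without it. Among NK cell markers, Ncr1 had an estimate of −1.63 (edgeR adjusted p = 0.325) and Gzma, a granzyme, one of 1.21 (edgeR adjusted p = 0.347), or 0.56 without PFSUV-IMQ replicate 2, and the list median was 0.33 with it and −0.28 without it. Of the 10 hepatocyte markers 0 were called by any of the 4 tools and 0 had an unadjusted p under 0.05, with estimates of 1.69 for Tat (edgeR adjusted p = 0.583) and 0.50 for Cps1 (edgeR adjusted p = 0.893). Without PFSUV-IMQ replicate 2 these were 0.56 and −0.71, and the list median was −0.66 in place of 0.20. The macrophage and dendritic cell medians were −0.13 and −0.43, and −0.28 and −0.78 without that tumor.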
